A study of Mus musculus with 9 samples.

Results

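Slc2a1, Slc2a3, Slc2a4, Slc2a8, Slc2a12, Tbc1d1, Tbc1d4 and Txnip encode 5 glucose transporters and 3 proteins that govern how much transporter reaches the cell surface. They were chosen by symbol, through the annotation of the array, and are 8 of the 20239 genes that the annotation names one by one. All 8 passed the filter on low values. RNA came from whole hearts of male C57BL/6 mice, 3 per group, on 9 Affymetrix arrays. Every animal had been given an adeno-associated virus at 8 weeks of age, with its cargo under an MLC (myosin light chain) promoter. After 4 weeks it had surgery, and the heart was taken 4 weeks after that. The TAC HDAC-NT group carried a piece of histone deacetylase 4, amino acids 1 to 201, and had TAC, a constriction of the aorta that loads the heart with pressure. The TAC luciferase group carried luciferase (AAV-Luc), a protein with no role in the heart, and had the same constriction. The sham group also carried luciferase and had surgery without constriction. There was no sham group with HDAC-NT among the arrays analysed here. Values are log2 expression after RMA, a method that combines the probes of a gene, and a difference of 1 is a change of 2-fold.

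Glucose enters cells by facilitated diffusion through the GLUT proteins of the Slc2a family. Heart muscle keeps GLUT4, the product of Slc2a4, in internal vesicles, and insulin, through AKT, or contraction, through AMPK, sends these vesicles to the surface. The Rab GTPase-activating proteins TBC1D4 and TBC1D1 hold the vesicles back until they are phosphorylated, and TXNIP promotes removal of GLUT1 and GLUT4 from the surface. Fetal heart relies more on GLUT1 (Slc2a1) and adult heart more on GLUT4, and loaded hearts are known for a shift towards glucose.

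The arrays hold no read depth, and the number of hearts limits the precision: the median standard error of a log2 difference between groups was 0.07. The cardiomyocyte marker list, 8 of 8 genes measured, averaged 13.05 to 13.07 in TAC HDAC-NT, 13.02 to 13.07 in TAC luciferase and 13.04 to 13.19 in sham hearts. TAC luciferase heart 1 stood apart from its group, with a correlation across genes of 0.991 to 0.992 with the TAC HDAC-NT hearts and 0.986 to 0.987 with TAC luciferase hearts 2 and 3. For the 8 genes, differences between the TAC groups that move by over 1.5 times without it are given both ways. The probe set of the animals' own Hdac4 differed by -0.02 (SE 0.06, limma adjusted p = 0.959) between TAC HDAC-NT and TAC luciferase. Where its probes lie is unknown here, so this level is no check of the delivered fragment.

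In TAC luciferase hearts Slc2a1 rose 2.87-fold over sham, while Slc2a4, Slc2a12 and Tbc1d4 fell 1.61-fold, 1.60-fold and 2.55-fold. With HDAC-NT, Slc2a1 was 1.99-fold lower than in TAC luciferase hearts, and it was the only one of the 8 genes to pass between the TAC groups. Slc2a4, Slc2a12 and Tbc1d4 were also below sham in TAC HDAC-NT hearts. A gene was called at a Benjamini-Hochberg adjusted p under 0.05 over all 12597 genes tested, in 1 limma fit of the 9 arrays. Of the 8 genes, 2 rose and 5 fell in TAC luciferase against sham, where 26.1% of all genes were called, 11.2% higher and 14.9% lower. Their median log2 difference was -0.44, and that of all genes -0.01. Between TAC HDAC-NT and TAC luciferase, 0 rose and 1 fell, where 0.254% of all genes were called, 0.143% higher and 0.111% lower. Of the 8, 1 had an unadjusted p under 0.05 there. The median of the 8 was 0.09, against 0.00 for all genes. In TAC HDAC-NT against sham, 1 rose and 3 fell, where 22.8% of all genes were called, 10.5% higher and 12.3% lower, and the median was -0.33. Under cyclic loess scaling the lean of all calls towards lower turned: higher calls made up 52.6% in TAC luciferase against sham, where they had been 42.8%, and 52.3% in TAC HDAC-NT against sham, where they had been 46.2%. Groups lay wholly apart for 7 of the 8 genes in TAC luciferase against sham (37.4% of all genes), for 7 in TAC HDAC-NT against sham (39.7%) and for 3 between the TAC groups (20.4%). Each pair of comparisons shares 3 arrays, so their values are given side by side and not as independent results. The count of 7 called genes in TAC luciferase against sham fell to 4 without sham heart 1 or without sham heart 2.

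**Figure D1:**
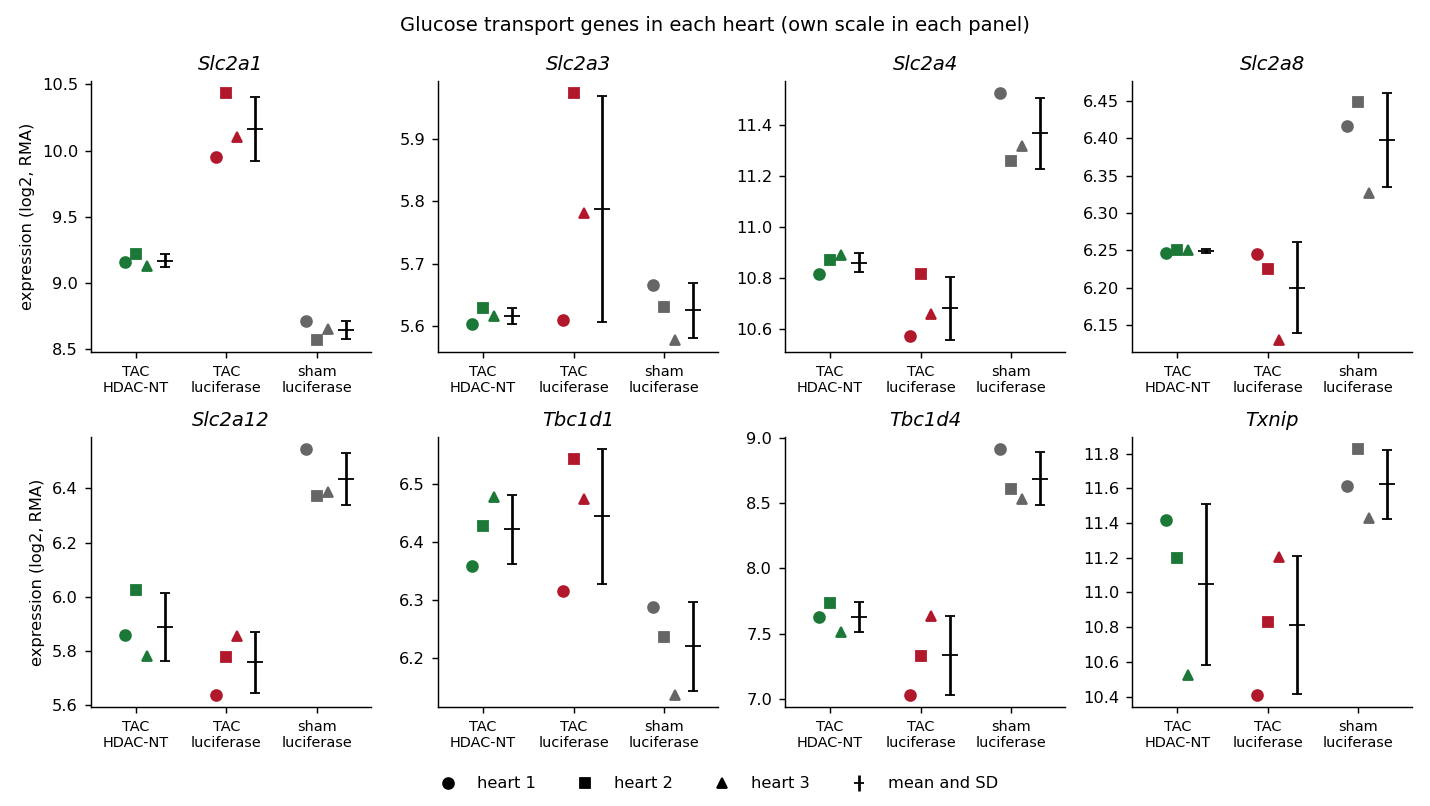
Expression of the 8 genes in each heart, as log2 RMA values on the vertical axis with a scale of its own in each panel. Symbols mark hearts 1, 2 and 3 and bars give the mean and SD of the 3 hearts. Slc2a1 is highest in the TAC luciferase hearts, at 9.95 to 10.43, while Slc2a4, Slc2a12 and Tbc1d4 are lower in all 6 TAC hearts than in sham.

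GLUT1, encoded by Slc2a1, is the transporter of basal uptake, present on the surface without insulin. The log2 expression of Slc2a1 was 9.16, 9.22 and 9.13 in the TAC HDAC-NT hearts, 9.95, 10.43 and 10.10 in the TAC luciferase hearts, and 8.71, 8.57 and 8.65 in the sham hearts. The 3 groups did not overlap, and the TAC HDAC-NT hearts lay between the others. Slc2a1 rose by 1.52 log2 units in TAC luciferase over sham (SE 0.11, adjusted p = 2.97e-05). It fell in TAC HDAC-NT relative to TAC luciferase, with a log2 difference of -0.99 (SE 0.11, 95% interval -1.23 to -0.76, adjusted p = 0.0128). It remained above sham in TAC HDAC-NT hearts by 0.52 (1.44-fold, adjusted p = 0.00678). In whole heart, fewer cells of a type and less RNA per cell cannot be told apart.

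The difference of Slc2a1 between the TAC groups lay between -1.10 and -0.79 log2 units in the settings tried, and its call was lost in 5 of 20 of them. Its lowest TAC luciferase value, in heart 1, was 0.73 log2 units above its highest TAC HDAC-NT value. Without TAC luciferase heart 1 the difference was -1.10 (adjusted p = 0.000528), and without hearts 2 and 3 it was -0.79 (adjusted p = 0.0242). Leaving out TAC HDAC-NT heart 1, 2 or 3 gave -0.99, -1.02 and -0.97, with adjusted p of 0.0896, 0.0751 and 0.0555. With only the 6 TAC arrays, the adjusted p was 0.0768. An index of clock genes, the mean of 3 activators minus the mean of 6 outputs, also separated these groups, at -1.70 to -1.05 in TAC HDAC-NT, -0.74, 0.47 and 0.98 in TAC luciferase, and -0.81 to -0.12 in sham hearts. With that index in the fit the difference of Slc2a1 was -0.85 (SE 0.17, adjusted p = 0.533), and its part in the result was not tested further.

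Slc2a1 is also expressed by cells other than muscle, such as endothelium. The 12 endothelial markers averaged 9.12 to 9.17 in TAC HDAC-NT, 9.02 to 9.12 in TAC luciferase and 8.99 to 9.09 in sham hearts. Between the TAC groups 0 of them were called, with a median difference of 0.21. There 6 of the 12 had an unadjusted limma p under 0.05, against 14.3% of all genes. Against sham, 2 were called higher and 2 lower in TAC luciferase, and 3 higher and 0 lower in TAC HDAC-NT. The 4 erythroid markers averaged 7.05 to 7.83 in TAC HDAC-NT, 7.22 to 7.46 in TAC luciferase and 7.43 to 7.67 in sham hearts, and overlapped. The 10 fibroblast markers averaged 9.35 to 9.42 in TAC HDAC-NT, 9.17 to 9.33 in TAC luciferase and 8.25 to 8.37 in sham hearts. In each TAC group 6 of 10 were called higher than sham. Of all genes, 11.2% were called higher in TAC luciferase and 10.5% in TAC HDAC-NT. The 13 measured macrophage and myeloid markers averaged 7.21 to 7.26 in TAC HDAC-NT, 7.24 to 7.36 in TAC luciferase and 6.85 to 7.003 in sham hearts. Against sham, 7 of these 13 were called higher in TAC HDAC-NT and 5 in TAC luciferase, and 0 lower in either. The 9 measured smooth muscle and pericyte markers averaged 8.76 to 8.79 in TAC HDAC-NT, 8.54 to 8.64 in TAC luciferase and 8.61 to 8.71 in sham hearts. Between the TAC groups 0 of these 9 were called, with a median difference of 0.16. There 3 of the 9 had an unadjusted limma p under 0.05, against 14.3% of all genes. The part of these cell types in the differences from sham, and in those between the TAC groups, was not tested.

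Slc2a1 is shown with the 250 bases before its RefSeq start, on GRCm38.p6 at chr4:119108495-119108744, plus strand, since it is the gene that was called in all 3 comparisons. Capitals mark ACGTG, the core of the element that hypoxia-inducible factors bind, at -36 to -32 from the start.
Slc2a1 promoter: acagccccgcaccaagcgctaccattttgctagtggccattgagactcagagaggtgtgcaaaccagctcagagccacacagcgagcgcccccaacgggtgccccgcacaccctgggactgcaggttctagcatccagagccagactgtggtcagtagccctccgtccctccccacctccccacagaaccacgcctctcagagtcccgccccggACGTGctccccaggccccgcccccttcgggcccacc
Searched on both strands, ACGTG is in 19.6% of 32851 mouse windows of 300 bases, so such a match is common. The window of Slc2a1 also holds TATAAA, 28 to 33 bases after the start, as do 13.6% of all windows. These letters describe the window and not binding.

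Slc2a3 encodes GLUT3, the high-affinity transporter best known from neurons. Its log2 level was 5.60, 5.63 and 5.62 in TAC HDAC-NT, 5.61, 5.97 and 5.78 in TAC luciferase, and 5.67, 5.63 and 5.58 in sham hearts. Only 3 of the 9 arrays were above the filter value of 5.66, so most of these values are near the low end of the array. TAC luciferase hearts 2 and 3 were the highest, and heart 1 lay within the other groups. Slc2a3 was not called in TAC luciferase against sham (0.16, adjusted p = 0.181), in TAC HDAC-NT against TAC luciferase (-0.17, adjusted p = 0.378) or in TAC HDAC-NT against sham (-0.01, adjusted p = 0.956). Without TAC luciferase heart 1 the difference from sham was 0.25 and passed (adjusted p = 0.0222), while the difference between the TAC groups was -0.26 and did not (adjusted p = 0.0582).

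GLUT4, encoded by Slc2a4, is the insulin-responsive transporter of muscle and fat. The log2 level of Slc2a4 was 10.82, 10.87 and 10.89 in TAC HDAC-NT, 10.57, 10.81 and 10.66 in TAC luciferase, and 11.52, 11.26 and 11.32 in sham hearts. All 6 TAC hearts lay below all sham hearts. Slc2a4 fell by 0.69 log2 units in TAC luciferase (SE 0.08, adjusted p = 0.000413) and by 0.51 in TAC HDAC-NT hearts (SE 0.08, 1.42-fold, adjusted p = 0.00226), each against sham. The TAC HDAC-NT values exceeded the TAC luciferase values, but by only 0.0035 log2 units at the nearest hearts. That difference, 0.18 (95% interval -0.01 to 0.36, adjusted p = 0.363), did not pass. Of 7 adipocyte markers, which mark the other tissue rich in GLUT4, 6 were below the filter on low values, Adipoq and Lep among them.

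Slc2a12 encodes GLUT12, a second transporter that insulin can bring to the surface in muscle. The log2 level of Slc2a12 was 5.86, 6.03 and 5.78 in TAC HDAC-NT, 5.64, 5.78 and 5.86 in TAC luciferase, and 6.55, 6.37 and 6.39 in sham hearts. The TAC groups overlapped each other and both lay below sham. Of the 9 arrays 8 were above the filter value of 5.66, and the TAC values are near the low end of the array. Slc2a12 fell by 0.68 in TAC luciferase (SE 0.08, adjusted p = 0.000466) and by 0.55 in TAC HDAC-NT hearts (SE 0.08, 1.46-fold, adjusted p = 0.0016), each against sham. The difference between the TAC groups was 0.13 (95% interval -0.06 to 0.32, adjusted p = 0.54), and 0.07 without TAC luciferase heart 1 (adjusted p = 0.771).

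GLUT8, from Slc2a8, resides mainly on internal membranes. Its log2 level was 6.25 in each of the 3 TAC HDAC-NT hearts, 6.25, 6.22 and 6.13 in TAC luciferase, and 6.42, 6.45 and 6.33 in sham hearts. The change was small: Slc2a8 fell 1.15-fold in TAC luciferase against sham (log2 difference -0.20, SE 0.05, adjusted p = 0.0203). The call was lost without sham heart 1, sham heart 2 or TAC luciferase heart 3, with adjusted p up to 0.0688. In TAC HDAC-NT against sham it stood at -0.15 (adjusted p = 0.0688), and against TAC luciferase at 0.05 (adjusted p = 0.762).

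The Rab GTPase-activating proteins came next in the pathway. TBC1D4, also called AS160, keeps GLUT4 inside the cell until AKT phosphorylates it. The log2 level of Tbc1d4 was 7.63, 7.74 and 7.51 in TAC HDAC-NT, 7.03, 7.33 and 7.64 in TAC luciferase, and 8.91, 8.61 and 8.53 in sham hearts. All TAC hearts lay at least 0.79 log2 units below the lowest sham heart. Tbc1d4 fell by 1.35 in TAC luciferase (SE 0.15, adjusted p = 0.000276) and by 1.06 in TAC HDAC-NT hearts (SE 0.15, 2.08-fold, adjusted p = 0.00111), each against sham. Between the TAC groups the difference was 0.29 (95% interval -0.05 to 0.63, adjusted p = 0.421). TAC luciferase heart 1 had the lowest value of all. Without it that difference was 0.14 (adjusted p = 0.668), and with heart 1 as the only TAC luciferase heart it was 0.60. Neither passed.

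TBC1D1, the relative of TBC1D4 that AMPK phosphorylates in contracting muscle, went the other way. The log2 level of Tbc1d1 was 6.36, 6.43 and 6.48 in TAC HDAC-NT, 6.32, 6.54 and 6.47 in TAC luciferase, and 6.29, 6.24 and 6.14 in sham hearts. It rose 1.17-fold in TAC luciferase against sham (log2 difference 0.22, SE 0.07, adjusted p = 0.0417), and the nearest hearts of the 2 groups were only 0.03 apart. That call was lost without any 1 of 8 arrays, all except TAC luciferase heart 1, with adjusted p up to 0.137. In TAC HDAC-NT against sham Tbc1d1 stood at 0.20 (adjusted p = 0.0678), and between the TAC groups at -0.02 (adjusted p = 0.939), or -0.09 without TAC luciferase heart 1 (adjusted p = 0.575).

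TXNIP binds thioredoxin and is an arrestin-like protein that promotes uptake of GLUT1 and GLUT4 into the cell, and its gene is induced by glucose. The log2 level of Txnip was 11.42, 11.20 and 10.53 in TAC HDAC-NT, 10.41, 10.83 and 11.20 in TAC luciferase, and 11.61, 11.83 and 11.43 in sham hearts. It varied more within the TAC groups than any other of the 8 genes, with an SD of 0.46 in TAC HDAC-NT and 0.40 in TAC luciferase, against 0.20 in sham hearts. TAC HDAC-NT heart 3 and TAC luciferase heart 1 were the lowest. Txnip fell 1.75-fold in TAC luciferase against sham (log2 difference -0.81, SE 0.25, adjusted p = 0.0392). The call was lost without any 1 of 6 arrays, with adjusted p up to 0.115. These were the 3 sham hearts, TAC luciferase hearts 1 and 2, and TAC HDAC-NT heart 2. In TAC HDAC-NT against sham it stood at -0.58 (adjusted p = 0.134). The difference between the TAC groups was 0.23 (95% interval -0.32 to 0.79, adjusted p = 0.763), and 0.03 without TAC luciferase heart 1.

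Txnip is shown with the same stretch of 250 bases before its start, GRCm38.p6 chr3:96557707-96557956, plus strand, because it holds a rare element tied to glucose. Capitals mark a match to the carbohydrate response element that the MondoA and ChREBP factors bind, CACGNG, 5 bases and CACGNG again, at -85 to -69 from the start.
Txnip promoter: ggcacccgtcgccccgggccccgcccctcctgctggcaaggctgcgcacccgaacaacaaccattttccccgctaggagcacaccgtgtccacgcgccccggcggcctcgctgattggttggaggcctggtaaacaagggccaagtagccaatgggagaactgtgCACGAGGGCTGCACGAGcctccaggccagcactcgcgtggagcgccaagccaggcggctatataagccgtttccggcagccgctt
The element was found, over both strands, in 16 of 32851 windows, or 0.0487%. Of the other genes, 5 had a window and it was in none of theirs. The E-box CACGTG, which contains ACGTG (in 7.15% of all windows), and the MEF2 consensus (in 3.19%) were in none of the 7 windows of these 6 genes. MEF2 is the factor that class IIa histone deacetylases bind, and the absence of a match says nothing of its action elsewhere.

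**Figure D2:**
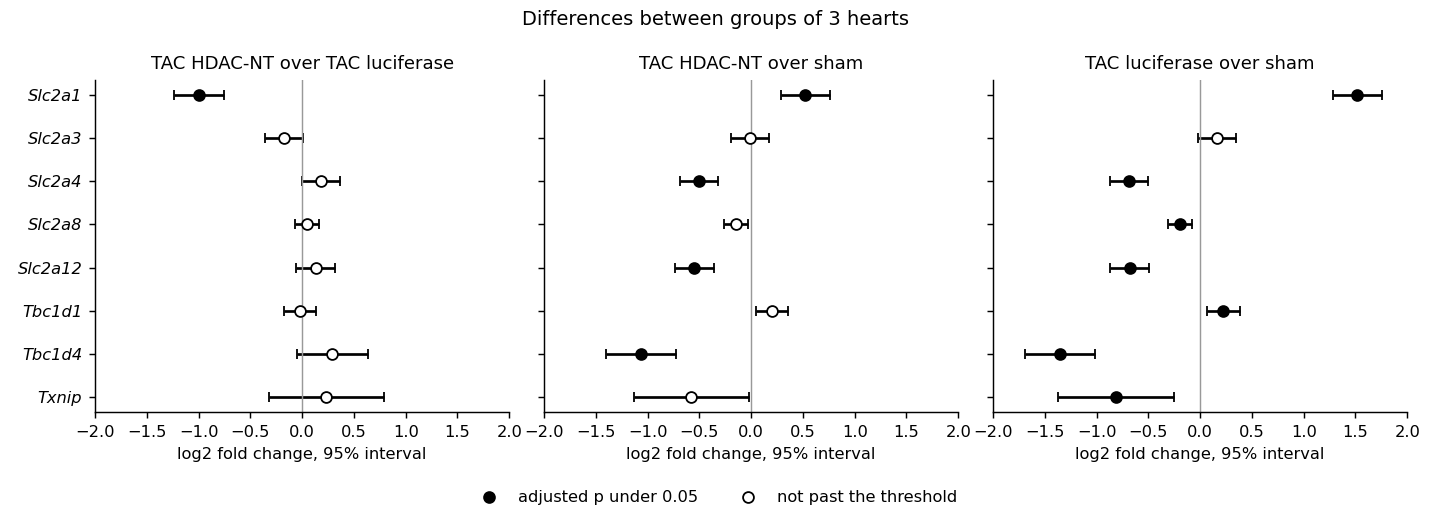
Log2 differences between groups of 3 hearts for each gene, with 95% intervals from the limma fit on the horizontal axis. Filled points passed an adjusted p of 0.05. Slc2a1 alone is filled for TAC HDAC-NT over TAC luciferase, at -0.99, and Tbc1d4 has the lowest values against sham, -1.06 in TAC HDAC-NT and -1.35 in TAC luciferase.

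The genes around these 8 were taken from 12 lists on glucose transport and use and 2 on the clock. Without the 8 genes, the lists held 201 tested genes. In TAC luciferase against sham 32 of them rose and 46 fell, or 38.8%, against 26.1% of all genes. In TAC HDAC-NT against sham 26 rose and 41 fell, or 33.3%, against 22.8% of all genes. Between TAC HDAC-NT and TAC luciferase 0 of 201 passed in limma, while 48 (23.9%) had an unadjusted p under 0.05, against 14.3% of all genes. All 3 clock activators and all 6 clock outputs were among these 48. The lists were chosen with results of these data known, and their shares are a description.

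The other transporters gave no calls. Of 7 other facilitative transporters 5 were tested and 0 were called in the 3 comparisons, with 1 below an unadjusted p of 0.05 in TAC luciferase against sham. Of the sodium-glucose cotransporters only Slc5a3, which carries myo-inositol, passed the filter. It stood at -0.26 in TAC HDAC-NT against TAC luciferase (adjusted p = 0.281).

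The machinery that moves GLUT4 vesicles went both ways. Of 26 genes for vesicle cargo, sorting and fusion, 4 rose and 4 fell in TAC luciferase against sham (26.1% of all genes called). In TAC HDAC-NT hearts against sham 6 rose and 2 fell (22.8% of all genes called). Lrp1, a receptor carried in these vesicles, rose most, by 1.40 in TAC HDAC-NT (adjusted p = 2.05e-05) and by 1.32 in TAC luciferase (adjusted p = 2.73e-05). Kif5b, a kinesin motor, rose by 0.66 in TAC HDAC-NT and by 0.65 in TAC luciferase. Sort1, the sorting receptor sortilin, fell by 0.41 in TAC HDAC-NT and by 0.40 in TAC luciferase. Vamp2, a vesicle SNARE, stood at -0.21 in TAC HDAC-NT (adjusted p = 0.138) and -0.28 in TAC luciferase against sham (adjusted p = 0.0489, a call lost without any 1 of 7 arrays). Lrp1 is also expressed by fibroblasts and macrophages, whose marker levels above moved with TAC, and their part was not tested.

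Among 20 Rab and other small GTPase genes of this traffic, 3 rose and 5 fell in TAC luciferase against sham (26.1% of all genes called). In TAC HDAC-NT hearts against sham 4 rose and 5 fell (22.8% of all genes called). Ralgapa2, part of the complex that restrains RalA, fell by 0.61 in TAC HDAC-NT (adjusted p = 0.000942) and by 0.80 in TAC luciferase (adjusted p = 0.000219). Rab4b rose by 0.46 in TAC HDAC-NT and by 0.45 in TAC luciferase. Rab10, a substrate of TBC1D4, stood at 0.03 in TAC HDAC-NT (adjusted p = 0.818) and -0.13 in TAC luciferase (adjusted p = 0.227).

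Signals upstream of the vesicles were described next. Of 28 genes from the insulin receptor to AKT, 6 rose and 5 fell in TAC luciferase against sham (26.1% of all genes called). In TAC HDAC-NT hearts against sham 3 rose and 5 fell (22.8% of all genes called). Akt2, the AKT form tied to GLUT4 movement, had log2 levels of 9.71, 9.81 and 9.79 in TAC HDAC-NT, 9.96, 9.81 and 9.95 in TAC luciferase, and 10.89, 10.55 and 10.47 in sham hearts. It fell by 0.87 in TAC HDAC-NT (SE 0.10, adjusted p = 0.000381) and by 0.73 in TAC luciferase (SE 0.10, adjusted p = 0.00086), each against sham. Grb14, an inhibitor of the insulin receptor, fell by 0.50 in TAC HDAC-NT and by 0.41 in TAC luciferase. The receptor gene Insr stood at -0.15 in TAC HDAC-NT (adjusted p = 0.197) and -0.24 in TAC luciferase (adjusted p = 0.0367, a call lost without any 1 of 6 arrays). Irs1, which couples the receptor to PI3-kinase, fell by 0.43 in TAC HDAC-NT (adjusted p = 0.0282) and stood at -0.33 in TAC luciferase (adjusted p = 0.0682). Its call was lost without sham heart 1 or 3 or TAC HDAC-NT heart 2, with adjusted p up to 0.0961 over all settings.

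Of 16 AMPK genes 2 rose and 3 fell in each TAC group against sham. Of all genes, 26.1% were called in TAC luciferase and 22.8% in TAC HDAC-NT against sham. Nuak1, an AMPK-related kinase, rose by 1.08 in TAC HDAC-NT (adjusted p = 0.000122) and by 1.67 in TAC luciferase (adjusted p = 1.36e-05). Between the TAC groups it stood at -0.59 (adjusted p = 0.0542). Prkaa2, the main catalytic AMPK subunit of muscle, stood at -0.17 in TAC HDAC-NT (adjusted p = 0.17) and -0.04 in TAC luciferase (adjusted p = 0.777). Of 15 partners and sensors around Txnip, 1 rose and 3 fell in TAC luciferase against sham (26.1% of all genes called). In TAC HDAC-NT hearts against sham 0 rose and 2 fell (22.8% of all genes called). Mlxipl, which encodes the glucose sensor ChREBP, fell by 0.45 in TAC HDAC-NT (adjusted p = 0.00347) and by 0.62 in TAC luciferase (adjusted p = 0.000591). Mlxip, which encodes MondoA, and Arrdc4, a relative of Txnip that MondoA also induces, were not called in any comparison.

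Downstream of uptake, glycolysis genes went both ways, with 5 of 17 higher and 3 lower in TAC luciferase against sham (26.1% of all genes called). In TAC HDAC-NT hearts against sham 2 were higher and 3 lower (22.8% of all genes called). Among the forms of phosphofructokinase, Pfkp, the platelet form, rose by 1.36 in TAC HDAC-NT (adjusted p = 4.47e-05) and by 1.40 in TAC luciferase (adjusted p = 3.59e-05). The muscle form Pfkm fell by 0.36 in TAC HDAC-NT and by 0.35 in TAC luciferase. Pfkfb2, the heart enzyme that makes the activator of phosphofructokinase, fell by 0.55 in TAC HDAC-NT and by 0.82 in TAC luciferase. Hk1, a hexokinase, rose by 0.51 in TAC HDAC-NT and by 0.46 in TAC luciferase, and Hk2, the insulin-regulated form, was not called, at -0.24 in TAC HDAC-NT and -0.02 in TAC luciferase.

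Of 11 pyruvate oxidation genes, 1 rose and 7 fell in TAC luciferase, with a median of -0.27, and 1 rose and 5 fell in TAC HDAC-NT hearts, with a median of -0.25, against -0.01 for all genes in both comparisons. Of all genes, 14.9% fell in TAC luciferase and 12.3% in TAC HDAC-NT hearts, each against sham. The pyruvate dehydrogenase phosphatase Pdp2 fell against sham, at -0.50 in TAC HDAC-NT and -0.66 in TAC luciferase. Mean log2 levels of Pdp2 were 5.64 in TAC HDAC-NT, 5.48 in TAC luciferase and 6.14 in sham hearts. Both TAC means were below the filter value of 5.66, near the low end of the array. The opposing kinase Pdk2 also fell against sham, at -0.44 in both TAC groups. Pdp1 fell by 0.62 in TAC luciferase (adjusted p = 0.00191), against -0.05 in TAC HDAC-NT hearts (adjusted p = 0.798), but the difference between the TAC groups, 0.57, did not pass (adjusted p = 0.0556). Pdk4 was not called. Of 17 glycogen genes 5 rose and 4 fell in TAC luciferase against sham (26.1% of all genes called). In TAC HDAC-NT hearts against sham 3 rose and 4 fell (22.8% of all genes called). Ppp1r3c, a subunit that brings protein phosphatase to glycogen, rose by 0.79 in TAC HDAC-NT and by 1.11 in TAC luciferase.

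Of 25 transcription factors and cofactors described for the glucose transporter genes, 2 rose and 10 fell in TAC luciferase (median -0.19), and 4 rose and 9 fell in TAC HDAC-NT hearts (median -0.18), each against sham. Calls over all genes also leaned lower, at 11.2% higher and 14.9% lower in TAC luciferase, and 10.5% and 12.3% in TAC HDAC-NT hearts. Klf15, which promotes Slc2a4 expression in muscle and fat cells, had log2 levels of 6.59, 6.69 and 6.45 in TAC HDAC-NT, 6.69, 7.11 and 6.90 in TAC luciferase, and 7.19, 7.53 and 7.52 in sham hearts. It fell by 0.84 in TAC HDAC-NT (adjusted p = 0.00148) and by 0.51 in TAC luciferase (adjusted p = 0.0154), each against sham. Without sham heart 2 or 3 the call in TAC luciferase was lost (adjusted p up to 0.0543). Tbx5, a heart transcription factor, fell by 0.54 in TAC HDAC-NT and by 0.95 in TAC luciferase. Mef2a, a MEF2 factor that binds the Slc2a4 promoter, fell by 0.29 in TAC HDAC-NT (adjusted p = 0.0242) and by 0.25 in TAC luciferase (adjusted p = 0.0434). The call in TAC HDAC-NT was lost without any 1 TAC HDAC-NT heart (adjusted p up to 0.0774 over all settings), and that in TAC luciferase without any 1 of 8 arrays, all except sham heart 3 (adjusted p up to 0.177 over all settings). Mef2c rose by 0.35 in TAC HDAC-NT against sham (adjusted p = 0.0257) and stood at -0.03 in TAC luciferase. Its call was lost without sham heart 1 or 3 or TAC HDAC-NT heart 1 or 3 (adjusted p up to 0.182 over all settings). Mef2d was not called.

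Myc, described as an inducer of Slc2a1, had log2 levels of 6.14, 6.07 and 6.46 in TAC HDAC-NT, 6.95, 8.32 and 7.69 in TAC luciferase, and 6.03, 5.90 and 5.80 in sham hearts. It rose by 1.74 in TAC luciferase against sham (SE 0.28, adjusted p = 0.00195), while TAC HDAC-NT stood at 0.31 (adjusted p = 0.496). The difference of TAC HDAC-NT from TAC luciferase was -1.43 and did not pass (SE 0.28, adjusted p = 0.0636), although these groups did not overlap. Hif1a, which encodes a hypoxia-inducible factor, rose by 0.56 in TAC HDAC-NT and by 0.47 in TAC luciferase against sham. Between the TAC groups Hif1a stood at 0.09 (limma adjusted p = 0.745).

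Of 16 hypoxia-response genes, Slc2a1 included, 4 rose and 1 fell in TAC luciferase against sham (26.1% of all genes called). In TAC HDAC-NT hearts against sham 2 rose and 2 fell (22.8% of all genes called). Between TAC HDAC-NT and TAC luciferase Slc2a1 was the 1 gene of the list to pass. There 7 of 16, Slc2a1 among them, had an unadjusted limma p under 0.05, against 14.3% of all genes. The list's median in that comparison, with Slc2a1 included, was -0.21, against 0.00 for all genes. Bnip3, a mitophagy gene, stood at -0.55 in that comparison (adjusted p = 0.0568), after a rise of 0.53 in TAC luciferase over sham (adjusted p = 0.00443). P4ha1, also of this list, stood at -0.03 between the TAC groups (limma adjusted p = 0.98). Its log2 levels were 9.16, 9.33 and 9.14 in TAC HDAC-NT and 8.99, 9.07 and 9.64 in TAC luciferase hearts. It rose against sham by 0.64 in TAC HDAC-NT (adjusted p = 0.0331) and by 0.67 in TAC luciferase (adjusted p = 0.0254). These calls were lost without any 1 of 5 arrays and without any 1 of 2 arrays, respectively. Egln1, an oxygen sensor that marks the factor for destruction, fell by 0.49 in TAC HDAC-NT and by 0.55 in TAC luciferase against sham.

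**Figure D3:**
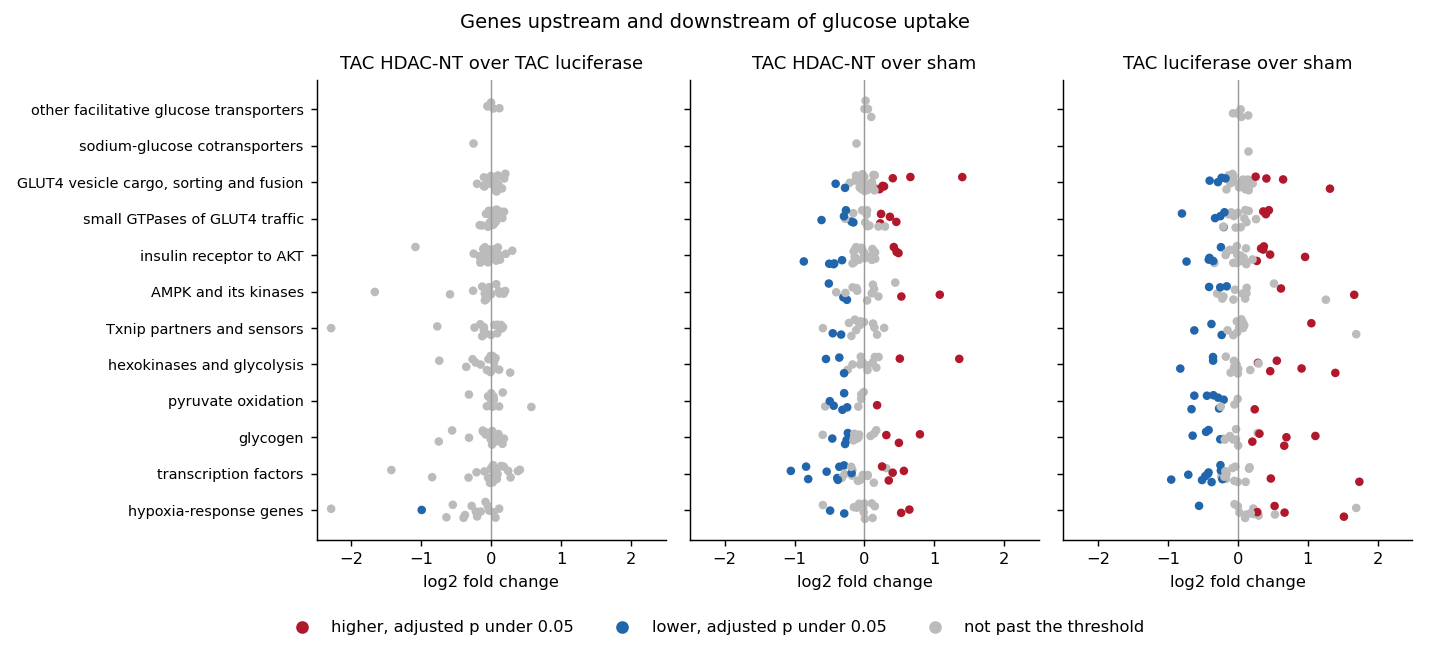
Log2 differences of the tested genes of 12 lists, 1 point per gene, with the groups compared above each panel. Red and blue points passed an adjusted p of 0.05. Slc2a1, at -0.99 among the hypoxia-response genes, is the 1 coloured point for TAC HDAC-NT over TAC luciferase; the other 7 glucose transport genes are not drawn.

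The genes whose profile was most like each of the 8 were found by the root mean square difference over the 9 hearts, after centring each gene on its own mean. For Slc2a1 these were Itga5, an integrin subunit, at 0.18 log2 units, Btg2, an antiproliferative gene, at 0.21, and Sorbs3, which encodes vinexin, at 0.21. The profile of Slc2a1 itself had an SD of 0.64. Itga5 had log2 levels of 8.94, 9.20 and 9.41 in TAC HDAC-NT, 9.76, 10.26 and 10.03 in TAC luciferase, and 8.38, 8.20 and 8.62 in sham hearts, so it followed the order of groups seen for Slc2a1. Sorbs3 kept this order too, at 0.57 in TAC HDAC-NT and 1.15 in TAC luciferase over sham. Btg2 did not separate TAC HDAC-NT, at 7.16, 7.33 and 7.45, from sham hearts, at 7.17, 7.12 and 7.34. Its TAC luciferase levels were higher, at 8.40, 8.64 and 8.63.

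The closest profiles to Slc2a4 were Abcd3, a peroxisomal transporter, at 0.061, Grcc10 at 0.063 and Trim7 at 0.067, beside an SD of 0.30 for Slc2a4. Grcc10 was also the closest to Slc2a12, at 0.045, followed by Agtpbp1 at 0.052 and Map3k5 at 0.058. Tbc1d4 was followed most closely by Epha4, an ephrin receptor, at 0.11, Kcnd2, a potassium channel subunit, at 0.11, and Asb15 at 0.12, beside its own SD of 0.61. The closest to Txnip were Insig1, at 0.23, Asb12, at 0.24, and Slc22a5, a carnitine transporter, at 0.24. The SD of Txnip was 0.46, so its nearest profiles left a larger share of its variation unmatched than those of Slc2a4 or Tbc1d4.

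The other members varied little, with SDs of 0.12 for Slc2a3, 0.09 for Slc2a8 and 0.12 for Tbc1d1. Their nearest profiles were Nod2, Itgb3 and Arc for Slc2a3, Nrip2, Paxip1 and Uqcrc2 for Slc2a8, and Smurf1, Pald1 and Dnajc10 for Tbc1d1. The distances were between 0.023 and 0.049. These are likenesses over 9 hearts of 3 groups, chosen among all tested genes, and carry no test.

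**Figure D4:**
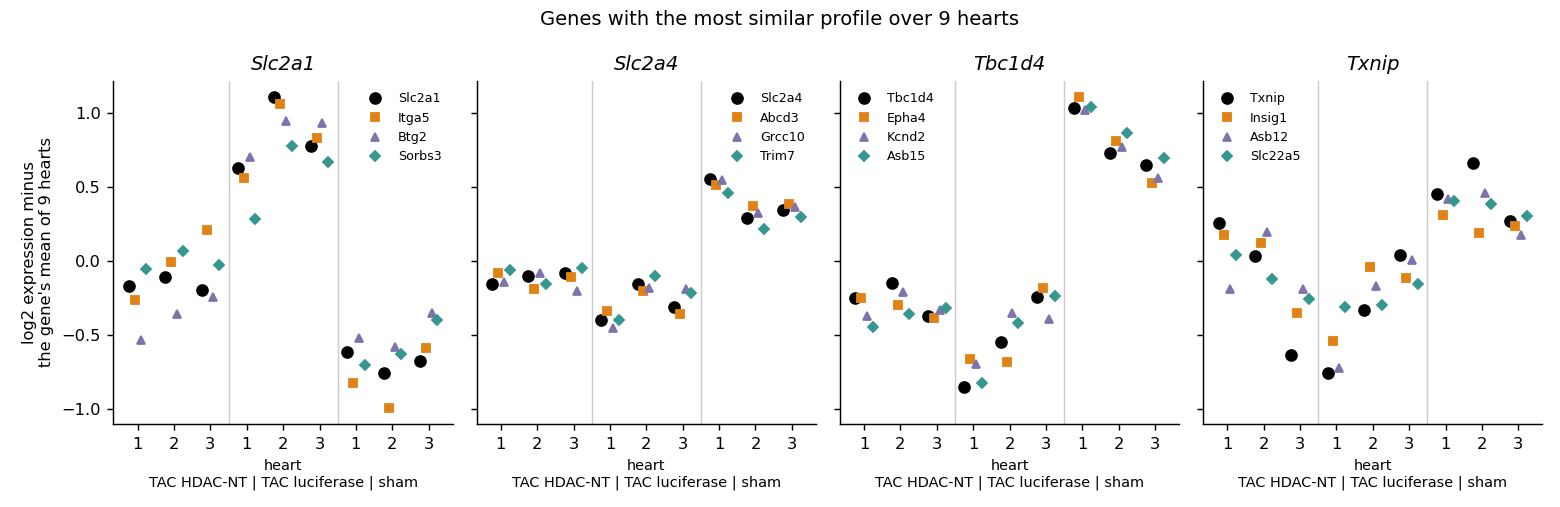
Profiles of Slc2a1, Slc2a4, Tbc1d4 and Txnip (black) with the 3 genes most like each, as log2 expression minus the gene's mean of the 9 hearts on the vertical axis. Hearts 1 to 3 of TAC HDAC-NT, TAC luciferase and sham run along the horizontal axis. The points of Slc2a4 and its 3 genes lie close together, at distances of 0.061 to 0.067, while those around Txnip spread more widely, at 0.23 to 0.24.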

How the data were processed

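The deposited values are log2 expression from RMA (per the submitters' processing notes) from Trizol-extracted total RNA, labelled as biotinylated cRNA per the labels' protocols. No label names the RMA version, the probe set definitions or a build. Sorted, the 9 arrays held identical values, as after quantile normalization. RMA compresses low values, which understates their fold changes. Of 21225 probe sets, 20239 had 1 gene symbol in the platform annotation, 1 probe set per gene, and 986 are unnamed here. All 20239 matched the RefSeq gene table (GRCm38.p6) by gene ID.

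Genes above the 40th percentile of all values on at least 3 of 9 arrays were tested, 12597 in all. One linear model over 9 arrays was fitted in R 4.3.3 by limma 3.58.1 (functions lmFit, contrasts.fit, eBayes; 6 residual and 3.23 prior degrees of freedom), with Benjamini-Hochberg adjustment over all tested genes. The labels give 3 male animals per group and do not say how the replicates were processed, so p-values measure the spread between these arrays. Replicate numbers gave no sign of pairing the arrays, though this cannot exclude it: deviations of same-numbered arrays correlated from -0.123 to 0.199. The code was tested on simulated data. Figures used matplotlib 3.10.9 in Python 3.11.15.

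The 8 genes and the lists were chosen with earlier results of these data known. Named genes were the 8, up to 3 called genes per list and comparison with the smallest p and groups that do not overlap, 17 named whatever their values, and the 3 nearest profiles of each of the 8. Of the 17, Lnpep was not analysed here. Slc5a3, Hdac4, Adipoq and Lep were named after their values were seen. Promoter windows, 250 bases before to 50 after the start, are from RefSeq (GRCm38.p6) and covered 6 of the 8 genes. Planned protein features were not analysed here. The other settings are listed with their effects in the closing section.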

Additional observations from a re-analysis of the deposited data

How the results depend on the processing

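Slc2a1, Slc2a4, Slc2a12 and Tbc1d4 kept their calls against sham, in both TAC groups, in all 20 other settings of the fit, and none of the called results turned its direction. The other settings were other filters, priors, scaling, weights, blocks and covariates, a fit of 2 groups only, and arrays left out. The replicate number as a replicate block gave 106 genes between TAC HDAC-NT and TAC luciferase, and left Tbc1d1 and Txnip without a call in TAC luciferase against sham (adjusted p 0.0626 and 0.0659). Only 3 of 9 arrays correlated best with their own number, which is no sign of pairing but cannot exclude it with so few arrays. Between TAC HDAC-NT and TAC luciferase, 32 genes were called, against 10 with no filter, 103 at the 60th percentile, 75 with a trended and robust prior, 827 with array weights, 177 with a random block on the leading number of each sample code, 7 with the mean of 4 atrial genes and 10 without TAC luciferase hearts 2 and 3. In limma the count was 0 in a fit of these 6 arrays, where 1868 genes had an unadjusted p under 0.05. With the clock index in the fit it was also 0, and 805 had such a p. It was 1 to 697 on leaving out 1 array, highest without TAC luciferase heart 1. It was 3 at an adjusted p of 0.01, 297 at 0.10 and 14 with at least 1.5-fold. Of the 8 glucose transport genes, the 1 called there became 0 with only these arrays, with the clock index, at 0.01 and without any 1 TAC HDAC-NT heart (range 0 to 1). In TAC luciferase against sham, the 7 called became 4 at 0.01 and 4 to 7 on leaving out 1 array. There 3283 genes were called, against 1926 without TAC luciferase hearts 2 and 3, 1748 at 0.01 and 775 with at least 1.5-fold. In TAC HDAC-NT against sham 2872 genes were called, against 1579 at 0.01 and 610 with at least 1.5-fold, where 1 of the 4 glucose transport genes was left. Cyclic loess scaling turned the share of higher calls between the TAC groups to 43.5%, against 56.2%, with smaller moves in TAC luciferase against sham (52.6%, against 42.8%) and TAC HDAC-NT against sham (52.3%, against 46.2%), and shifted the median of all genes by at most 0.0183. Tbc1d1 lost its call in 13 of 20 settings, Txnip in 11 and Slc2a8 in 6, all in TAC luciferase against sham. The cause was not tested. Slc2a3, near the low end of the arrays, could not be tested at the 60th percentile filter. Of the calls of named genes, from the lists or among the nearest profiles, 45 of 57 in TAC luciferase against sham and 43 of 50 in TAC HDAC-NT against sham held on leaving out each array in turn. Between the TAC groups the 1 such call, Btg2 at -1.24, held as well. It was lost with only the 6 TAC arrays and with the clock index in the fit.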
